A study of Homo sapiens with 4 samples.

Results

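RAPGEF1, RAPGEF2, RAPGEF3, RAPGEF4, RAPGEF5, RAPGEF6, SOS1 and SOS2 were read at the gene and the isoform level. The members were the 8 gene rows with these symbols, of 41507 gene rows, and the 53 transcript rows named by symbol and number, such as RAPGEF2_5, of 67765 transcript rows. They were compared in SU-DHL-5 and Toledo, established cell lines of diffuse large B-cell lymphoma. Each line had 1 sample treated with DMSO, the vehicle, and 1 treated with JQ1 at 1 µM, which keeps BET proteins off acetylated histones. The sample labels give 6 h of treatment and a figure legend of the study gives 8 h. All 4 samples were grown in the same serum-containing medium. Each sample had 2 libraries, called library 1 and library 2 here, and the sources used here do not say what separates them. Each condition was therefore n = 1, and no test across the 4 samples was run. One comparison of the study asked if the expression of RAS exchange factors and GTPase activators differs with JQ1.

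RAS and RAP proteins are small GTPases that are active when bound to GTP. Guanine nucleotide exchange factors open the nucleotide pocket so that GDP leaves and GTP binds. SOS1 and SOS2 are exchange factors of RAS, brought to activated receptors by the adaptor GRB2. The RAPGEF proteins act on RAP GTPases, which control integrin adhesion and cell junctions: RAPGEF1 is bound by CRK adaptors, RAPGEF3 and RAPGEF4 (the Epac proteins) are switched on by cAMP, RAPGEF2 and RAPGEF6 carry PDZ domains, and RAPGEF5 carries a RAS-association domain.

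At the gene level, RAPGEF2 was higher with JQ1 by 1.72-fold in SU-DHL-5 and 1.65-fold in Toledo, and RAPGEF5 was lower, at 0.683 and 0.697 of the DMSO level. In Toledo the log2 ratio of RAPGEF2 was 1.05 or 0.40 and that of RAPGEF5 -0.25 or -0.78, by the library used. SOS2 was 1.36-fold and 1.28-fold higher, short of 1.5-fold in both lines, and its Toledo log2 ratio ran from 0.09 to 0.66 with the library used. At the isoform level, 5 of 15 rows in SU-DHL-5 (1 below and 4 above) and 8 of 19 rows in Toledo (4 below and 4 above) passed a 2-fold cutoff. Over all transcript rows 18.6% were below and 12.4% above in SU-DHL-5, with 22% and 11.3% in Toledo. The minimum of 20 reads was set on the higher condition. A row at 0 in the other condition thus passed the cutoff by construction, among the members and over all rows. Among the member rows with at least 20 reads, 1 in each line stood apart from its gene by more than its libraries differed, 1 of 15 and 1 of 19, against 8.77% and 9.46% of all such rows. Both rows passed that minimum through DMSO and were at 0 with JQ1, and neither was called with at least 50 reads.

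The libraries held 14617583 to 17679831 mapped reads, recovered from the RPKM values (reads scaled to the bases of a feature and the depth of its library). The B-cell genes MS4A1, CD79A, CD79B and PAX5 were between 5.46 and 643.5 RPKM over the 8 libraries. The T-cell genes CD3D, CD3E and CD3G were at most 1.09 RPKM, the myeloid genes CD14, LYZ and CSF1R at most 1.20 RPKM, and EPCAM, KRT8 and KRT18 were listed at 0. MS4A1 and CD79A were lower with JQ1 in both lines without overlap of libraries, MS4A1 at 51.0 and 43.5 RPKM with DMSO against 11.7 and 12.01 (SU-DHL-5) and at 96.7 and 108.7 against 38.6 and 35.4 (Toledo). CD79B and PAX5 were lower in one line each: CD79B in Toledo, with overlap in SU-DHL-5, and PAX5 in SU-DHL-5, whereas in Toledo PAX5 was at 14.4 and 18.4 RPKM with DMSO against 21.6 and 18.2 with JQ1. In SU-DHL-5 CD3E was at 1.09 and 0.934 RPKM with DMSO against 0.120 and 0.0452 with JQ1, and LYZ at 1.09 and 1.20 against 0.200 and 0.0903. Their part in the ratios below was not tested. Intervals below are 95% exact binomial (Clopper-Pearson) intervals of the JQ1 share of the reads, turned into a log2 ratio, and cover counting error only. Ratios are log2((JQ1 + 0.1)/(DMSO + 0.1)) of the mean RPKM of the libraries unless called plain, and this scale understates the change of low genes.

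The study lists qPCR primers for all 8 genes, and those of the 4 genes whose isoform shares are plotted are given below, because the place of an amplicon decides which isoform rows it can cover. Each is written 5′ to 3′ in lower case, and positions are on GRCh38 from exact matches to GENCODE v29 transcripts.
RAPGEF2 forward: ttctccaaggaaaggtggca
RAPGEF2 reverse: agtaccactgggagccaaag
RAPGEF5 forward: tcgaggcatctggtcgaata
RAPGEF5 reverse: agatcagctcttgctcgtga
RAPGEF6 forward: gtagagcaggctggagctat
RAPGEF6 reverse: ctgatttccacagtgccgtt
SOS2 forward: tttggcagaagagcaagcatt
SOS2 reverse: accagcataagacgtggaagg
The RAPGEF2 primers lay at chr4:159350276-159351064 across a junction and at chr4:159352691-159352710, with an amplicon of 163 bases. The RAPGEF5 primers lay at chr7:22150440-22150459, exon 18 of RAPGEF5-201, and across a junction at chr7:22145210-22146903, with an amplicon of 189 bases. Those of RAPGEF6 lay in exons 9 and 10 of RAPGEF6-201, at chr5:131508093-131508112 and chr5:131505479-131505498, 86 bases in all. Those of SOS2 lay across a junction at chr14:50180672-50182472 and at chr14:50174494-50174514, exon 8 of SOS2-201, 180 bases in all. All 8 primers were in coding sequence. The span of every RAPGEF2, RAPGEF6 and SOS2 row, and of 5 of the 6 RAPGEF5 rows, held the whole amplicon. Spans alone thus did not separate rows such as RAPGEF2_2 and RAPGEF2_5. Both primers had exact matches in 4 of 15 RAPGEF2, 2 of 12 RAPGEF5, 9 of 15 RAPGEF6 and 1 of 6 SOS2 transcripts of GENCODE v29. Exons of the rows were not given, so only spans were compared, and whether a row holds the exons of an amplicon is not known. No SOS1 transcript of GENCODE v29 held exact matches to both SOS1 primers, and that pair was not placed. Matches of each SOS1 primer alone were not examined.

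**Figure D1:**
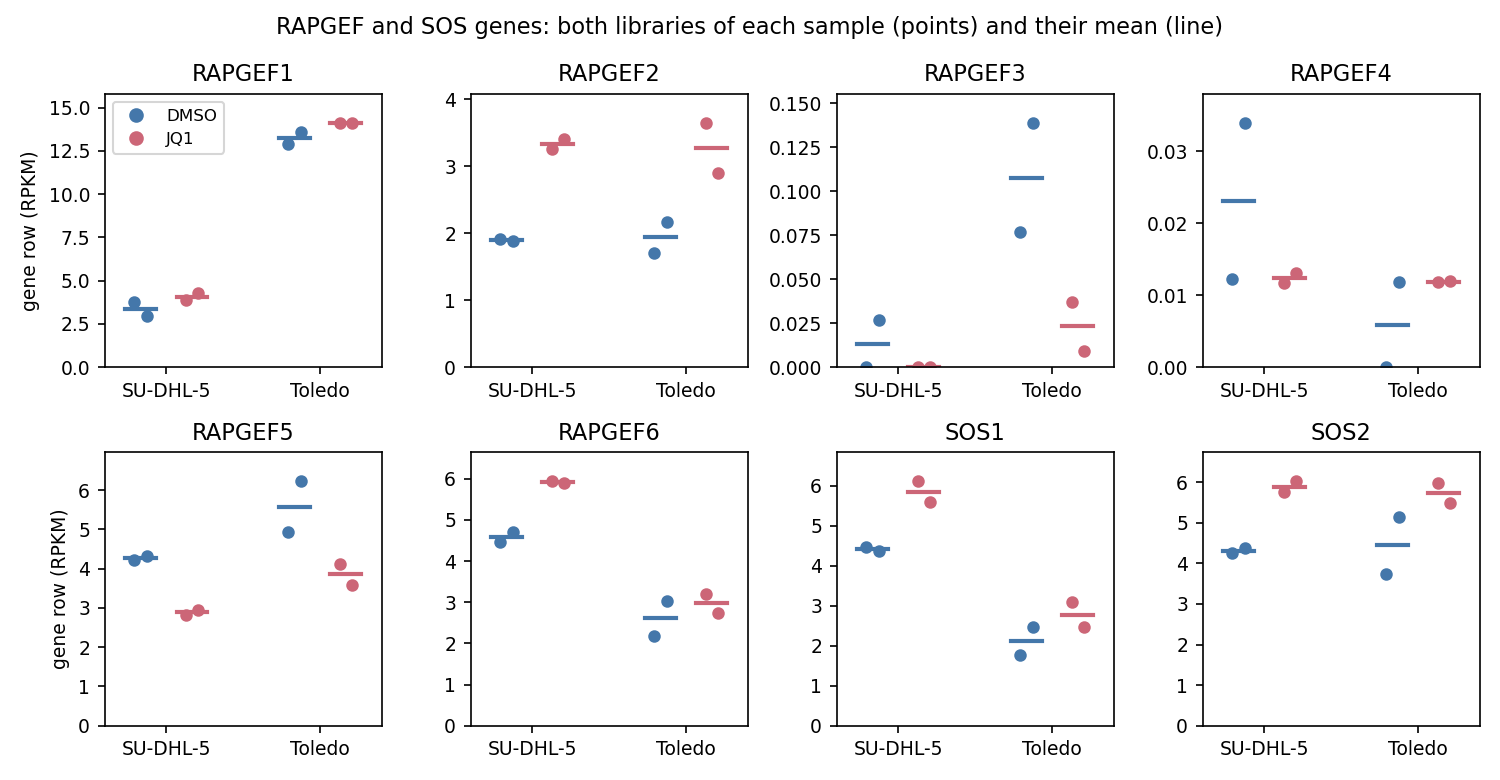
Gene-row levels in RPKM (vertical axes start at 0 and differ between genes) for the 8 genes in both lines; points are the 2 libraries of a sample and lines their mean. RAPGEF2 is higher and RAPGEF5 lower with JQ1 in both lines with no overlap, and RAPGEF3 and RAPGEF4 lie at or below 0.139 RPKM.

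RAPGEF2 (chromosome 4, 159104072 to 159360162) had a log2 ratio above that of 95.8% of the genes with at least 50 reads over the libraries of the line (SU-DHL-5) and of 95.3% (Toledo). In SU-DHL-5 its DMSO libraries were at 1.91 and 1.88 RPKM and its JQ1 libraries at 3.26 and 3.41 RPKM. In Toledo the DMSO libraries were at 1.71 and 2.17 RPKM and the JQ1 libraries at 3.65 and 2.90 RPKM. In each line the lower JQ1 library exceeded the higher DMSO library, and the Toledo libraries of one sample differed more than those of SU-DHL-5. The log2 ratios were 0.78 (interval of the plain ratio 0.65 to 0.98) and 0.72 (0.60 to 0.92). The Toledo ratio was 1.05 from library 1 alone and 0.40 from library 2 alone, so the 1.5-fold call in Toledo was lost with library 2 alone. With a pseudocount of 1 the ratios were 0.58 and 0.54, and the call was lost in both lines.

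RAPGEF5 (chromosome 7, 22118290 to 22357132) moved the other way. Its SU-DHL-5 libraries were at 4.21 and 4.32 RPKM with DMSO and 2.82 and 2.95 RPKM with JQ1. In Toledo they were at 4.93 and 6.22 RPKM with DMSO and 4.12 and 3.59 RPKM with JQ1. JQ1 libraries lay below DMSO libraries in both lines without overlap. The log2 ratios were -0.55 (-0.71 to -0.43) and -0.52 (-0.65 to -0.40), just short of the 1.5-fold cutoff, and the Toledo ratio was -0.25 from library 1 alone and -0.78 from library 2 alone.

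The exchange factors of RAS, SOS1 and SOS2, were higher with JQ1 in SU-DHL-5. SOS1 (chromosome 2, 38981549 to 39120543) was at 4.47 and 4.35 RPKM with DMSO and 6.11 and 5.59 RPKM with JQ1 in SU-DHL-5. In Toledo SOS1 was at 1.78 and 2.46 RPKM with DMSO and 3.10 and 2.46 RPKM with JQ1. The SOS1 libraries did not overlap in SU-DHL-5 and overlapped in Toledo, where the lower JQ1 library and the higher DMSO library were nearly equal. The SOS1 log2 ratios were 0.40 (0.30 to 0.52) and 0.37 (0.24 to 0.56). SOS2 (chromosome 14, 50117128 to 50231381) was at 4.25 and 4.38 RPKM with DMSO and 5.75 and 6.02 RPKM with JQ1 in SU-DHL-5. In Toledo SOS2 was at 3.75 and 5.14 RPKM with DMSO and 5.99 and 5.48 RPKM with JQ1. The SOS2 libraries did not overlap in either line, and its log2 ratios were 0.44 (0.31 to 0.58) and 0.36 (0.24 to 0.51). In Toledo library 1 alone and library 2 alone gave 0.77 and -0.0037 for SOS1, and 0.66 and 0.09 for SOS2.

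RAPGEF6 (chromosome 5, 131423921 to 131635236) was at 4.45 and 4.71 RPKM with DMSO and 5.94 and 5.91 RPKM with JQ1 in SU-DHL-5. In Toledo it was at 2.17 and 3.04 RPKM with DMSO and 3.20 and 2.75 RPKM with JQ1, and the groups overlapped. Its log2 ratio was 0.36 (0.27 to 0.47) in SU-DHL-5 and 0.18 (0.06 to 0.34) in Toledo, where library 1 alone gave 0.54 and library 2 alone -0.14. RAPGEF1 (chromosome 9, 131576770 to 131739977) was at 3.75 and 2.95 RPKM with DMSO and 3.89 and 4.27 RPKM with JQ1 in SU-DHL-5. In Toledo RAPGEF1 was at 12.9 and 13.6 RPKM with DMSO and at 14.1 RPKM in both JQ1 libraries. The groups did not overlap, and the log2 ratios were small, 0.28 (0.15 to 0.43) and 0.09 (0.02 to 0.16). The DMSO libraries of RAPGEF1 in SU-DHL-5 differed from each other by -0.33 on the log2 scale, more than this ratio, which was 0.05 from library 1 alone and 0.52 from library 2 alone.

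The cAMP-activated members were close to 0. RAPGEF3 had 3 reads with DMSO and 0 with JQ1 in SU-DHL-5, and 24 and 5 reads in Toledo. In Toledo RAPGEF3 was at 0.0765 and 0.139 RPKM with DMSO and 0.0370 and 0.00932 RPKM with JQ1, without overlap, a log2 ratio of -0.75. At these levels the ratio depended on the pseudocount (-1.83 with 0.01 and -0.11 with 1) and on the library (-0.37 with library 1 alone and -1.13 with library 2 alone). The interval of its plain log2 ratio ran from -3.94 to -0.78. RAPGEF4 had 4 reads with DMSO and 2 with JQ1 in SU-DHL-5, with 1 and 2 in Toledo, at which depth no difference was detectable.

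Of the 6 members with at least 50 reads in the 4 libraries of a line, 5 in SU-DHL-5 were higher with JQ1 without overlap of libraries, against 40.7% of the 10203 genes with that many reads, and RAPGEF5 alone was below, against 39.1%. In Toledo 3 of 6 (RAPGEF1, RAPGEF2 and SOS2) were above, against 28.4% of 10708 genes, and 1 was below, against 44.4%. A difference of at least 1.5-fold without overlap was met in the higher direction by RAPGEF2 alone in each line (SU-DHL-5, 9.15% of all such genes, and Toledo, 7.1%). In the lower direction it was met by 0 of the 6 (14.4% and 19.1% of all such genes), with RAPGEF3 in Toledo meeting it below the read minimum. The median log2 ratio of the 6 members was 0.38 (SU-DHL-5) and 0.27 (Toledo), and the median of all these genes was 0.01 and -0.09. The median of all 8 members was 0.32 and 0.14, and in Toledo it was 0.35 with library 1 alone and -0.0014 with library 2 alone.

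The members are long, 5192 to 9382 bases of exons, against a median of 3261 bases for the 8030 genes of at least 1 RPKM in every library. Between the DMSO libraries of Toledo, library 2 over library 1 increased with length, with a Spearman's rho of 0.62 over 9332 genes that share these libraries. The rho was -0.27 between the JQ1 libraries of Toledo, and -0.09 and -0.06 for DMSO and JQ1 in SU-DHL-5. In Toledo DMSO, the library difference of SOS1, SOS2 and RAPGEF6 was 0.45, 0.44 and 0.47 on the log2 scale, larger than their JQ1/DMSO log2 ratios. When each library was centred on its trend with length, the log2 ratios in SU-DHL-5 and Toledo were 0.63 and 0.69 for RAPGEF2, -0.68 and -0.53 for RAPGEF5, 0.23 and 0.33 for SOS1, 0.34 and 0.37 for SOS2, 0.17 and 0.12 for RAPGEF6, and 0.16 and 0.08 for RAPGEF1. The direction held for all 6, RAPGEF5 in SU-DHL-5 then lay past 1.5-fold, and the share of length in the uncentred ratios was not tested.

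**Figure D2:**
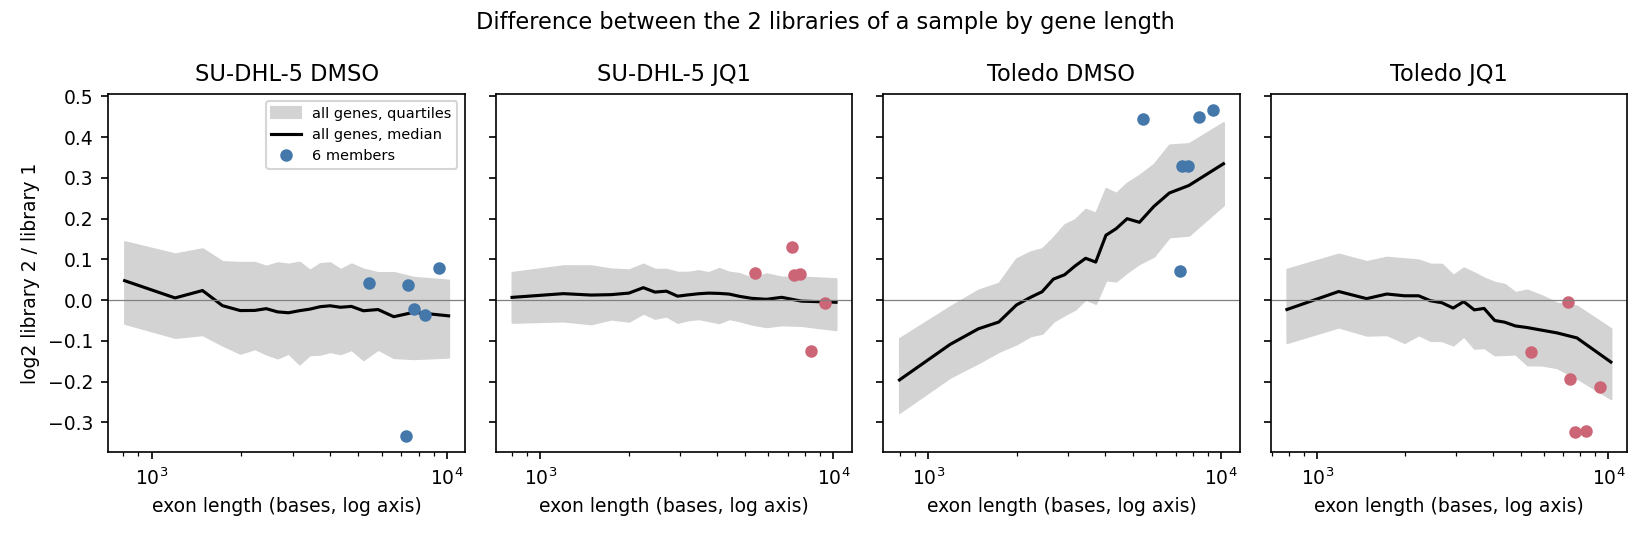
Log2 ratio of library 2 to library 1 of each sample against exon length (log axis); line and band are the median and quartiles over all genes of at least 1 RPKM in both libraries and points are RAPGEF1, RAPGEF2, RAPGEF5, RAPGEF6, SOS1 and SOS2. In Toledo DMSO the line climbs with length and 5 of the 6 points lie at 0.33 to 0.47.

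Without JQ1, the order of the genes by length-scaled level differed between the lines. In SU-DHL-5 DMSO, RAPGEF6 (4.58 RPKM), SOS1 (4.41), SOS2 (4.32) and RAPGEF5 (4.27) followed each other with overlapping libraries at each step, and RAPGEF1 (3.35) and RAPGEF2 (1.90) lay apart below them. In Toledo DMSO, RAPGEF1 stood first at 13.3 RPKM, followed by RAPGEF5 (5.58) and SOS2 (4.44), whose libraries overlapped, and then RAPGEF6 (2.60), SOS1 (2.12) and RAPGEF2 (1.94), whose libraries overlapped at each step. RAPGEF1 was 3.95-fold higher in Toledo than in SU-DHL-5 by the plain ratio of means (log2 interval 1.88 to 2.10). SOS1 was 2.08-fold and RAPGEF6 1.76-fold higher in SU-DHL-5, RAPGEF5 was 1.31-fold higher in Toledo (log2 interval 0.26 to 0.50), and RAPGEF2 and SOS2 overlapped between the lines.

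Promoters are shown for RAPGEF1, the member that differed most between the lines among those with at least 50 reads, and RAPGEF6, whose 6 rows share 1 start. Each is the entry whose RefSeq start lay closest to the most upstream start of the rows with reads (99 bases from RAPGEF1_1 and 7 from RAPGEF6_1; RAPGEF1_2, with more of the reads, starts further downstream at 131739860), 300 bases of RefSeq on GRCh38.p14, 5′ to 3′, with motif matches on either strand in capitals.
RAPGEF1, chr9:131740027-131740326, minus strand: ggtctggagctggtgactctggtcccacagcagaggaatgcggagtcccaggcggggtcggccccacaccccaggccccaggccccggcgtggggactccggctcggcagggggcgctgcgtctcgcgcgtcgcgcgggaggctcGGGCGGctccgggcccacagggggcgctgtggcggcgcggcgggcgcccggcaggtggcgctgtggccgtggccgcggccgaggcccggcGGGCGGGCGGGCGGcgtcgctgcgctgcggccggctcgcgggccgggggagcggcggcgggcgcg
RAPGEF6, chr5:131635180-131635479, minus strand: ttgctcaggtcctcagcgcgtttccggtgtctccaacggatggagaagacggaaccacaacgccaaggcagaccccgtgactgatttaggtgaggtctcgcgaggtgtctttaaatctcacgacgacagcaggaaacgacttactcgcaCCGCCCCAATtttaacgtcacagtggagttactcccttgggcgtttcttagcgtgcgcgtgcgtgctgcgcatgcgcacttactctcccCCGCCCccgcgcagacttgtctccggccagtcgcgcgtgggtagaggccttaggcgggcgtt
The motifs searched on both strands were the GC box GGGCGG, the CCAAT box CCAAT, the TATA box TATAAA, the E box CACGTG and the cAMP response element TGACGTCA. RAPGEF1 held 4 GC boxes, 3 of them overlapping, and RAPGEF6 held 2 GC boxes and 1 CCAAT box that overlaps one of them. GC boxes were present in 45% of the 35116 listed promoters and CCAAT boxes in 34.6%. The TATA box, the E box and the cAMP response element had no match in these windows, and were in 11.5%, 7.26% and 1.85% of all promoters. A match is letters only and no site was measured.

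Of the 53 isoform rows, 19 were at 0 in all 8 libraries and 34 had a value. At least 20 reads in the higher condition were reached by 15 rows (SU-DHL-5) and 19 rows (Toledo), and by no row of RAPGEF3 or RAPGEF4. In RAPGEF4, RAPGEF6, SOS1 and SOS2, 4 of the 8 genes, the recovered reads of the isoform rows summed exactly to those of the gene row in every library. In RAPGEF1, RAPGEF2 and RAPGEF5 the length of low-read rows was set so that the sums met, and the reads of RAPGEF1_4 and RAPGEF2_1 rest on this. In RAPGEF3 the sums did not meet (15 reads in the gene row and 7 in its isoform rows in Toledo DMSO library 2), so the reads of its isoform rows are uncertain and its rows are given in RPKM. Below, a pair of read numbers gives library 1 and library 2 in that order.

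**Figure D3:**
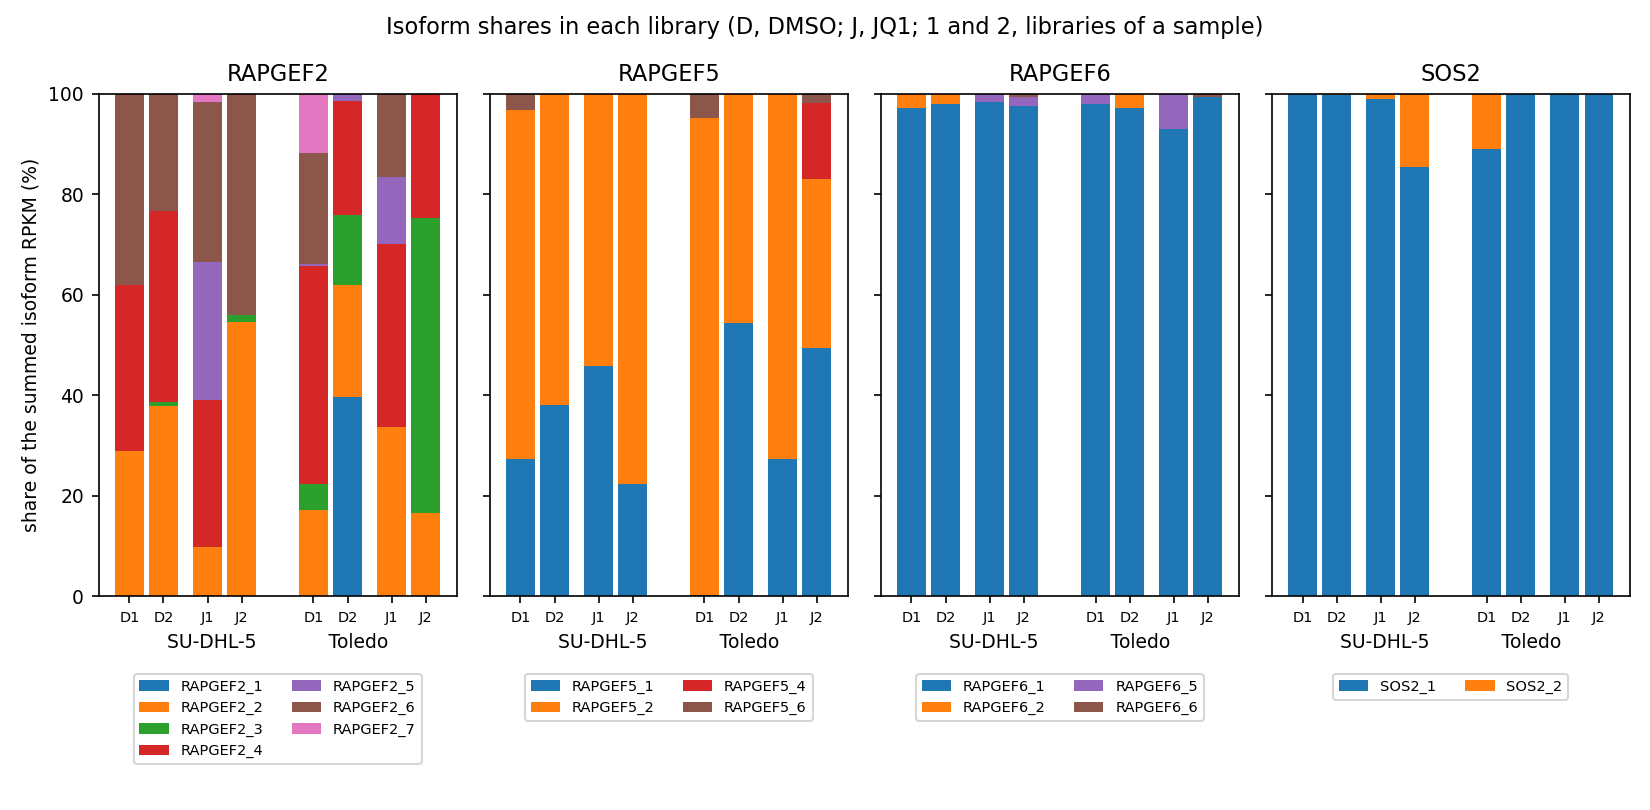
Share of the summed isoform RPKM held by each row of RAPGEF2, RAPGEF5, RAPGEF6 and SOS2 in each of the 8 libraries (percent). RAPGEF6_1 keeps at least 93.0% in every library, while the RAPGEF2 and RAPGEF5 rows trade places between the 2 libraries of one sample.

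RAPGEF2, which had the highest log2 ratio of the members with at least 50 reads in both lines, had rows that changed places between libraries. Of its 8 rows, 6 share one span, chromosome 4, 159104072 to 159360162, and their recovered lengths run from 7079 to 7236 bases. In JQ1-treated SU-DHL-5, RAPGEF2_4 had 121 and 0 reads, RAPGEF2_5 had 115 and 0, and RAPGEF2_2 had 41 and 211. In JQ1-treated Toledo, RAPGEF2_3 had 0 and 210 reads. In Toledo with DMSO, RAPGEF2_1 had 0 and 108 reads and RAPGEF2_6 had 51 and 0. The gene row held 414 and 384 reads in JQ1-treated SU-DHL-5, so the libraries agreed on the gene and not on the row. RAPGEF2_1, RAPGEF2_2, RAPGEF2_3, RAPGEF2_4 and RAPGEF2_6 each had the highest RPKM of the RAPGEF2 rows in at least 1 library.

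RAPGEF2 gave 2 of the 5 member rows past the 2-fold cutoff in SU-DHL-5, where 4 of its rows had enough reads, and 5 of the 8 in Toledo, where 7 had. In SU-DHL-5 RAPGEF2_5 was at 0 reads in both DMSO libraries, and RAPGEF2_6 was above 2 at 2.18 times the DMSO level, with 87 and 57 reads against 130 and 168. RAPGEF2_6 was the one called row of RAPGEF2 in that line with reads in all 4 libraries, and its ratio lay 0.23 from that of the gene on the log2 scale. For RAPGEF2_6, library 1 alone, at 0.783 RPKM with DMSO and 1.11 with JQ1, did not reach the 2-fold cutoff. Library 2 alone, at 0.474 and 1.62 RPKM, passed it. In Toledo RAPGEF2_2, RAPGEF2_3 and RAPGEF2_5 were above 2, at 2.19, 4.40 and 12.4 times the DMSO level. RAPGEF2_2 had 40 and 61 reads with DMSO against 154 and 60 with JQ1, RAPGEF2_3 had 12 and 37 against 0 and 210, and RAPGEF2_5 had 1 and 4 against 61 and 0, so 1 JQ1 library carried each of these ratios. RAPGEF2_1 and RAPGEF2_7 were below 0.5 in Toledo, with 0 reads in both JQ1 libraries. RAPGEF2_7 begins downstream, at position 159228247, and had 27 and 0 reads in Toledo with DMSO. Its distance from the gene, -1.79 on the log2 scale, just exceeded its library difference of 1.68, and library 2 with DMSO held as few reads as the JQ1 libraries. In SU-DHL-5 RAPGEF2_7 had 0 and 0 reads with DMSO against 7 and 0 with JQ1, under the read minimum.

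RAPGEF5 reads were shared by RAPGEF5_1 and RAPGEF5_2, whose starts are at 22356914 and 22357132. RAPGEF5_1 matched the transcript model RAPGEF5-201 of GENCODE v29 to 1 base. In Toledo with DMSO, RAPGEF5_1 had 1 and 398 reads and RAPGEF5_2 had 632 and 345, so the share of RAPGEF5_1 was 0.155% in one library and 54.3% in the other. In SU-DHL-5 RAPGEF5_1 held 27.3% and 37.9% of the sum with DMSO and 45.8% and 22.3% with JQ1, and these overlapped. RAPGEF5_2 was lower with JQ1 in SU-DHL-5, 349 and 338 against 188 and 248 reads, the direction of the gene. RAPGEF5_4 passed the cutoff upward in Toledo with 63 reads, all in JQ1 library 2.

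RAPGEF6 kept its main row. RAPGEF6_1, identical in span and recovered length (8357 bases) to RAPGEF6-208, a model of 28 exons, held 93.0% to 99.4% of the sum over the 8 libraries. In SU-DHL-5 it had 638 and 735 reads with DMSO and 911 and 800 with JQ1, a log2 ratio of 0.38 beside 0.36 for the gene. RAPGEF6_2, of the same span and 8062 bases, had 18 and 15 reads with DMSO and 0 and 0 with JQ1 in SU-DHL-5. This row was 1.54 below the gene on the log2 scale and its libraries differed by 0.21, and the upper bound of the plain log2 ratio was -3.01. RAPGEF6_2 made up 2.84% and 2.07% of the RAPGEF6 sum with DMSO. In Toledo it had 0 and 13 reads with DMSO and 0 with JQ1, so only 1 of the DMSO libraries differed from JQ1. RAPGEF6_5 had 0 and 0 reads with DMSO and 8 and 8 with JQ1 in SU-DHL-5, under the read minimum, and 4 and 0 against 19 and 0 in Toledo.

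SOS1_1 and SOS1_2 start at 39120463 and 39120543. In SU-DHL-5 SOS1_1 had 463 and 375 reads with DMSO and 672 and 472 with JQ1, and SOS1_2 had 126 and 246 against 174 and 214. Both SOS1_1 libraries with JQ1 were above those with DMSO, and those of SOS1_2 overlapped. In Toledo SOS1_1 held 47.8% and 48.9% of the sum with DMSO and 62.0% and 37.9% with JQ1, on either side of the DMSO shares, so the row with the larger share differed between the JQ1 libraries. SOS2_1 held all or most of the SOS2 sum, between 85.3% and 100%. In SU-DHL-5 SOS2_2 had 0 and 1 reads with DMSO against 6 and 69 with JQ1, whereas in Toledo it had 39 and 0 against 0 and 0. SOS2_2 was thus above the cutoff in one line and below it in the other, and in each line a single library carried most of the reads.

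RAPGEF1 was carried by RAPGEF1_1 and RAPGEF1_2, whose starts lie at 131739977 and 131739860. In Toledo RAPGEF1_2 held 75.9% and 78.1% of the sum with DMSO and 77.6% in both JQ1 libraries, and RAPGEF1_1 held 21.8%, 19.6%, 22.0% and 20.5%. The shares of both rows thus moved by little between the conditions and between the libraries in Toledo. In SU-DHL-5 RAPGEF1_2 held 78.2% and 84.0% with DMSO and 67.8% and 81.4% with JQ1. RAPGEF1_4, with a start at 131737538, had all its reads in JQ1 library 1 of SU-DHL-5, 40 to 44 of them as the sum of the rows allows. The 8 rows that start at 131676643 to 131676653 held 40 and 39 of the Toledo reads with DMSO and 8 and 32 with JQ1. Among them RAPGEF1_11 was below 0.5 in Toledo, with 20 and 20 reads against 0 and 13, and RAPGEF1_8 had 20 and 19 against 8 and 17.

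The isoform rows of RAPGEF3 and RAPGEF4 were near 0. The RAPGEF3 row with the highest mean was RAPGEF3_7 in SU-DHL-5, at 0.0208 RPKM with DMSO and 0 with JQ1, and RAPGEF3_6 in Toledo, at 0.0812 RPKM with DMSO and 0.0164 with JQ1. For RAPGEF4 it was RAPGEF4_4 in SU-DHL-5, with 4 reads with DMSO and 0 with JQ1, and RAPGEF4_7 in Toledo, with 1 read in each condition.

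Over all rows with enough reads, 1 of 15 in SU-DHL-5 (RAPGEF6_2) had a ratio below 0.5, against 18.6% of the 26980 transcript rows with that depth, and 4 (RAPGEF1_4, RAPGEF2_5, RAPGEF2_6 and SOS2_2) a ratio above 2, against 12.4%. In Toledo 4 of 19 were below 0.5 (RAPGEF1_11, RAPGEF2_1, RAPGEF2_7 and SOS2_2), against 22% of 27946 rows, and 4 were above 2 (RAPGEF2_2, RAPGEF2_3, RAPGEF2_5 and RAPGEF5_4), against 11.3%. A row at 0 reads in one condition passed by construction once it met the minimum in the other. This holds for RAPGEF6_2, RAPGEF1_4 and RAPGEF2_5 in SU-DHL-5. In Toledo it holds for RAPGEF2_1, RAPGEF2_7, SOS2_2 and RAPGEF5_4. The same 2-fold cutoff was then set between library 2 and library 1 of one sample, for rows of at least 10 reads in the higher library. It was passed by 0 of 12 member rows in SU-DHL-5 DMSO and by 5 of 14 in SU-DHL-5 JQ1, against 28.7% and 29% of all such rows. In Toledo it was passed by 7 of 18 member rows with DMSO and 10 of 17 with JQ1, against 29.5% and 29.2%. These counts set single libraries against each other, and those of JQ1 and DMSO set means of 2 libraries, so they are not compared.

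**Figure D4:**
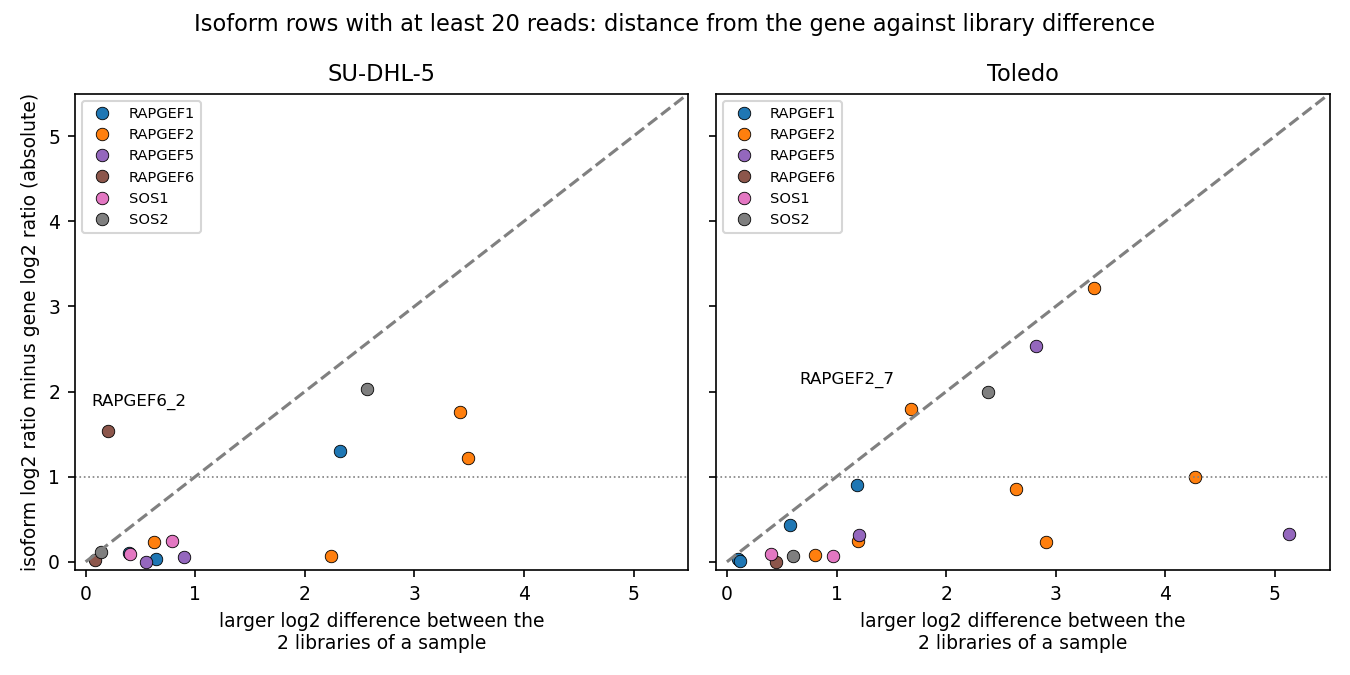
For each isoform row with at least 20 reads, the absolute distance of its log2 ratio from that of its gene (vertical) against the larger log2 difference between the 2 libraries of either sample (horizontal); the dashed line marks equality and the dotted line a distance of 1. RAPGEF6_2 in SU-DHL-5 and, narrowly, RAPGEF2_7 in Toledo lie above both lines, each with 0 reads in both JQ1 libraries.

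A row was called apart from its gene when its log2 ratio differed from the gene's by at least 1 and by more than the libraries of either sample differed. This was met by 1 of 15 rows in SU-DHL-5 (RAPGEF6_2), against 8.77% of all rows, and by 1 of 19 in Toledo (RAPGEF2_7), against 9.46%. Both rows passed the read minimum through DMSO, where they are high, and were at 0 in both JQ1 libraries, so their JQ1 library difference is 0 by construction. With a minimum of 50 reads neither row was called. In SU-DHL-5 5 rows differed from their gene by at least 1, and in 4 of them the libraries differed by more. In Toledo this was so for 3 of 4. The median distance of a member row from its gene was 0.12 (SU-DHL-5) and 0.31 (Toledo), and the median of the larger library difference was 0.64 and 1.20. Over all transcript rows these medians were 0.28 and 0.58 (SU-DHL-5) and 0.29 and 0.61 (Toledo).

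Other genes of the pathway were counted by the same 1.5-fold rule among those with at least 50 reads, beside the same share over all genes (SU-DHL-5, 9.15% higher and 14.4% lower, and Toledo, 7.1% and 19.1%). Of the RAP GTPases RAP1A, RAP1B, RAP2A, RAP2B and RAP2C, the substrates of the RAPGEF proteins, 2 of 5 were higher in SU-DHL-5 (RAP1A and RAP2A) and 1 of 5 in Toledo (RAP2B), genes named here after their values were seen, and none was lower. Of the adaptors and scaffolds of SOS, 0 of 6 were higher and 1 lower in SU-DHL-5, and 1 of 9 higher and 2 lower in Toledo. BLNK, the scaffold of the B-cell receptor, was lower in both lines (log2 ratios -1.45 and -1.92). Of the RAPGEF1 adaptors, 2 of 4 were lower in SU-DHL-5 and 0 of 3 in Toledo, and none was higher. Of the genes of cAMP making, breakdown and signalling, 1 of 10 was higher and 3 lower in SU-DHL-5, and 0 of 11 higher and 5 lower in Toledo. PDE4B, which degrades cAMP, had log2 ratios of -1.68 in both lines, and ADCY7 and ADCY3, which make it, had -2.19 and -0.64 (SU-DHL-5) and -1.07 and -1.57 (Toledo). Of the RAP effectors, 0 of 7 were higher and 3 lower in SU-DHL-5, and 1 of 6 higher and 3 lower in Toledo. FERMT3, which activates integrins, had log2 ratios of -2.97 and -2.83, RASSF5 -1.41 and -1.26, and APBB1IP -1.39 and -0.98. Of the other exchange factors of RAS-like proteins, 2 of 13 were higher and 5 lower in SU-DHL-5, and 2 of 10 higher and 4 lower in Toledo. RASGRP2 and RASGRP1 were lower in both lines, with log2 ratios of -2.76 and -1.78 (SU-DHL-5) and of -2.50 and -1.81 (Toledo). RGL2 and RASGRP3 were lower in both lines too, with log2 ratios of -1.21 and -1.13 (SU-DHL-5) and of -1.13 and -0.90 (Toledo). RALGPS1, which also met the rule in both lines, was higher, with log2 ratios of 0.75 and 0.96.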

How the data were processed

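Messenger RNA of 4 samples was sequenced by the authors from 8 libraries made with a stranded kit. RPKM values of genes and of transcripts, from trimmed paired reads, were deposited by the authors, who per the submitters' processing notes used CASAVA 2.0 and GRCh38. The aligner, counting and annotation are not given in the sources used here. How reads were divided among isoforms of one gene is therefore not known, and bears on every isoform value.

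Groups came from the sample labels, and the libraries of a sample were averaged (n = 1 per condition). Mapped reads and feature lengths were recovered as the values that made the RPKM whole reads within 0.01 of a read, possible for 99.99% of the rows above 0 in both tables. Lengths of low-read rows can come out too small by a common factor. A row was rescaled where it alone closed the gap between the isoform sum and the gene (3923 rows), after which the sums met the gene in all libraries for 95.3% of 14942 genes. Recovered reads served for filters and intervals. No count model was fitted, with 1 sample per condition, and scripts were tested on simulated data.

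Ratios used a pseudocount of 0.1 RPKM. The members were named in full, with each one's highest isoform and every isoform past a cutoff, and genes of the pathway lists where they met the 1.5-fold rule in both lines (at most 4 a list, with RALGPS1 added after its values were seen). The members and lists were chosen with earlier results of these data known. Alternatives varied the pseudocount, cutoffs, read minimum, library, scaling, length centring and the use of summed isoforms. The study's own list of called genes was not used, and 1 gene of the marker lists is not reported here. The scripts ran in Python 3.11.15 with scipy 1.17.1, pandas 2.3.3, matplotlib 3.10.9 and numpy 2.4.6.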

Additional observations from a re-analysis of the deposited data

How the results depend on the processing

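The labels carry no replicate numbers, and no fit that paired the samples by line (2 pairs) was run. Of 182 values under alternatives, 138 stayed within the counting interval, the spread between libraries or 1.5 times the count. No called ratio reversed, and RAPGEF6 and SOS1 in Toledo, not called, changed sign with library 2 alone (-0.14 and -0.0037). Where the cause is not the number of reads or libraries kept, the cause was not tested. The count of members 1.5-fold higher, 1 in each line (RAPGEF2), was 0 with a pseudocount of 1 and with a cutoff of 2-fold. In Toledo it was 3 with library 1 alone and 0 with library 2 alone. The count lower in Toledo, 1 (RAPGEF3, under the read minimum), was 0 with a pseudocount of 1, with a 2-fold cutoff and with library 1 alone, and 2 with library 2 alone. The median log2 ratio of the 8 members in Toledo, 0.14, was 0.35 with library 1 alone and -0.0014 with library 2 alone. That in SU-DHL-5, 0.32, was 0.23 with library 1 alone and 0.17 when centred on length. Isoform rows below 0.5 in SU-DHL-5, 1 as reported, were 6 with no minimum of reads, 0 with at least 50 reads and 3 with library 2 alone, and those above 2, 4 as reported, were 11 with no minimum and 2 with library 1 alone. In Toledo rows below 0.5, 4 as reported, were 10 with no minimum and 1 with at least 50 reads, and those above 2, 4 as reported, were 8 with no minimum and 2 with library 2 alone. Rows apart from their gene, 1 in each line, were 0 with at least 50 reads in both lines. Depth limits RAPGEF3 and RAPGEF4, and the rows under 50 reads, of which RAPGEF6_2 (33 reads) and RAPGEF2_7 (27 reads) are examples.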
